A study of Mus musculus with 4 samples.

Results

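A set of 10 effector genes of disease-associated microglia was followed in cuprizone-fed mice: Spp1, Gpnmb, Cst7, Clec7a, Lilrb4a, Cd9, Cd63, Lgals3, Fabp5 and Ch25h. They were chosen by symbol as known markers of microglia activated by demyelination. Of these 10 genes, 9 were among the 32285 genes of the count tables, and Clec7a was not analysed here. Single brain cells sorted on CD45 and CD11b came from 2 PRMT1FL mice, labelled wild type, and from 2 PRMT1Cx3cr1-KO mice. The first carry floxed alleles of Prmt1, a gene for an arginine methyltransferase, and in the second the inducible recombinase CreERT driven by Cx3cr1 deletes those alleles. Because CreERT sits at Cx3cr1 in the PRMT1Cx3cr1-KO mice alone, the effect of the driver allele and that of the loss of Prmt1 cannot be told apart, and the recombinase can act in any cell that uses Cx3cr1. According to the methods both genotypes received tamoxifen. All 4 mice were fed 0.2% cuprizone (CPZ), a copper chelator that kills oligodendrocytes and strips axons of myelin, for 5 wk. The labels give an age of 5 to 6 wk for the diet, whereas the methods give that age for the tamoxifen. No mouse on a normal diet was among these samples, so the values compare genotypes and cells under CPZ and not CPZ with health.

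Microglia that meet damaged myelin, dying neurons or amyloid lower the genes of their resting state and take up a shared programme of phagocytosis, lysosomal breakdown and lipid handling, in part through the receptor TREM2. The genes followed here sit at several steps of that programme. Spp1 (osteopontin, a secreted ligand of integrins and CD44) and Gpnmb (a transmembrane glycoprotein of phagocytes) are its signals at and beyond the cell surface, Clec7a and Lilrb4a are surface receptors, Cd9 and Cd63 are tetraspanins of the plasma membrane and of late endosomes, Cst7 is an inhibitor of lysosomal cathepsins, Lgals3 is a galectin that gathers at damaged lysosomes, and Fabp5 and Ch25h handle fatty acids and cholesterol.

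The 4 libraries held 40869 cells that passed limits of 200 to 6000 genes and 10% mitochondrial unique molecular identifiers (UMIs, tags that count each captured RNA molecule once), 8170 to 11427 per mouse, with a median of 6066 to 6960 UMIs per cell. Summed over these cells, a mouse gave 75252723 to 96076833 UMIs. Libraries shared 31 to 46 cell barcodes in pairs, at most 0.555% of the smaller library. All 10 microglial markers were present in every library, with a summed level of 8298 to 8998 CPM (counts scaled to a common library sum). Cells given to another type held at least 3 UMIs of its markers, and more of these than of microglial markers. Their share was 2.94 and 3.11% for the PRMT1FL mice, with 0.935 and 0.651% for the PRMT1Cx3cr1-KO mice. Neutrophil markers summed to 583 and 1623 CPM in PRMT1FL mice against 133 and 217 CPM in PRMT1Cx3cr1-KO mice, and astrocyte markers to 162 and 156 CPM against 77.3 and 54.9 CPM. Prmt1 itself, the targeted gene, stood at 92.2 and 85.0 CPM in PRMT1FL mice against 70.4 and 68.6 CPM in PRMT1Cx3cr1-KO mice (log2 fold change -0.35, SE 0.07, adjusted p = 0.0440 by edgeR). Transcripts of an intact and of a recombined Prmt1 allele both count towards this level, since only whole genes were counted.

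The 9 measured genes lie on 7 chromosomes of mm10. Spp1 spans chr5:104435118-104441050, Gpnmb chr6:49036546-49070929, Cst7 chr2:150570415-150578944, Lilrb4a chr10:51490956-51496611, Cd63 chr10:128900989-128912822, Lgals3 chr14:47367751-47386160 and Fabp5 chr3:10012548-10016607 on the plus strand. Cd9 spans chr6:125460266-125494791 and Ch25h chr19:34473778-34475164 on the minus strand. All are annotated as protein coding. RefSeq (GRCm38.p6) gave start sites, and the 250 bases before them, for 7 of the 9 genes. The windows of 5 genes are shown because the genes behave differently in the cells described here. Gpnmb and Lgals3 had the largest mean ratio of observed to expected co-detection over all 4 mice. Cst7 was found with Lgals3 less often than expected in PRMT1Cx3cr1-KO mice alone. Spp1 reached the most UMIs in a single cell, and Ch25h went with the interferon genes. Each window is printed 5′ to 3′ on the strand of its gene and ends at the base before the start site, with capitals marking a motif. They are Spp1 at chr5:104434861-104435110 (plus strand), Gpnmb at chr6:49036268-49036517 (plus), Cst7 at chr2:150570165-150570414 (plus), Lgals3 at chr14:47373610-47373859 (plus, before a start site inside the annotated span of the gene) and Ch25h at chr19:34475149-34475398 (minus).
Spp1: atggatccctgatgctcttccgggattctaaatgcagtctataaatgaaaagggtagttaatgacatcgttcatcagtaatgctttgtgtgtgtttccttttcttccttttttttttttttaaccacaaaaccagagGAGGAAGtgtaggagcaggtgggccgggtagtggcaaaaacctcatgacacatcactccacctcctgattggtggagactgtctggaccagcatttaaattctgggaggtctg
Gpnmb: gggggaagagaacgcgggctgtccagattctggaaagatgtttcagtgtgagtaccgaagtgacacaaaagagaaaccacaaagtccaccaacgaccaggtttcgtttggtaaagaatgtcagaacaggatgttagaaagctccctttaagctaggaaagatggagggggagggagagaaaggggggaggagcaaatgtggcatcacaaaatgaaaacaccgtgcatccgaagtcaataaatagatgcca
Cst7: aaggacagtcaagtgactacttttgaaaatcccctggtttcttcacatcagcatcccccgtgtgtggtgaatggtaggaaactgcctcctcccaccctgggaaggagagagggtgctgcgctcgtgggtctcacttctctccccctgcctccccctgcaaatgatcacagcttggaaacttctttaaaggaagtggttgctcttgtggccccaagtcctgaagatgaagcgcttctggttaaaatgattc
Lgals3: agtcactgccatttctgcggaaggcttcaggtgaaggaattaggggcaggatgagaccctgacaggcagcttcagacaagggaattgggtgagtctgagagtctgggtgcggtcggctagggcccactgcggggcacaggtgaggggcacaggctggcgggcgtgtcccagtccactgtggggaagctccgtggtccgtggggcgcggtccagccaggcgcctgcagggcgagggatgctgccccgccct
Ch25h: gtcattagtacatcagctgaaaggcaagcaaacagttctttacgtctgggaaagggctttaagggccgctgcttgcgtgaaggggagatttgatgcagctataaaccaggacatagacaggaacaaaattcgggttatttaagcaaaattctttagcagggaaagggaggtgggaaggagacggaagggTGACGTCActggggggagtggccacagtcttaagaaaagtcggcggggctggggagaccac

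The windows of the 7 genes (8 windows, since Spp1 has 2 start sites) were searched on both strands for the E-box CACGTG bound by the MiT family of lysosomal regulators, the related M-box TCATGTG, the AP-1 motif TGANTCA, the PU.1 motif GAGGAAG and the cAMP response element TGACGTCA. The last was added after the Ch25h window had been read. None of the 7 genes held the E-box, the M-box or the AP-1 motif in these 250 bases, against 6.02, 3.25 and 6.75% of 32851 mouse windows of that length. The PU.1 motif, present in 10.6% of all windows, was found 113 bases before the Spp1 start (GAGGAAG, in capitals) and 60 bases before that of Cd63. This Cd63 start site, like that of Lgals3, lies inside the annotated span of the gene. TGACGTCA, present in 1.55% of all windows, was found 61 bases before the Ch25h start. Motif matches were read as letters only.

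Between genotypes, Cst7 and Lgals3 fell in PRMT1Cx3cr1-KO mice in the main edgeR fit, and none of the 9 genes rose in that fit. Over all 14757 genes tested by edgeR's quasi-likelihood test, 5.08% passed an adjusted p of 0.05, 1.31% rising and 3.76% falling, against 2 of these 9 genes, both falling. An unadjusted p under 0.05 was reached by 5 of the 9, against 24.1% of all genes, and DESeq2 called 3, with Lilrb4a rising. The median log2 fold change of the 9 genes was -0.17, against -0.00 over all genes tested, with 7 of 9 estimates below 0. The mice of the 2 genotypes did not overlap for 8 of the 9 genes, as for 57% of all genes tested. The excess of falling genes was absent with the cells of other types left out. In that edgeR fit 65 genes rose and 27 fell of 13920 tested, and 0 of the 9 passed. As in the main fit, 2 of the 9 estimates lay above 0, and those of Cst7 and Lgals3 were -0.73 and -0.38. The cause of this shift in calls was not tested. Nothing in the labels states how the mice relate to each other, and p-values measure the spread between these 4 animals.

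**Figure D1:**
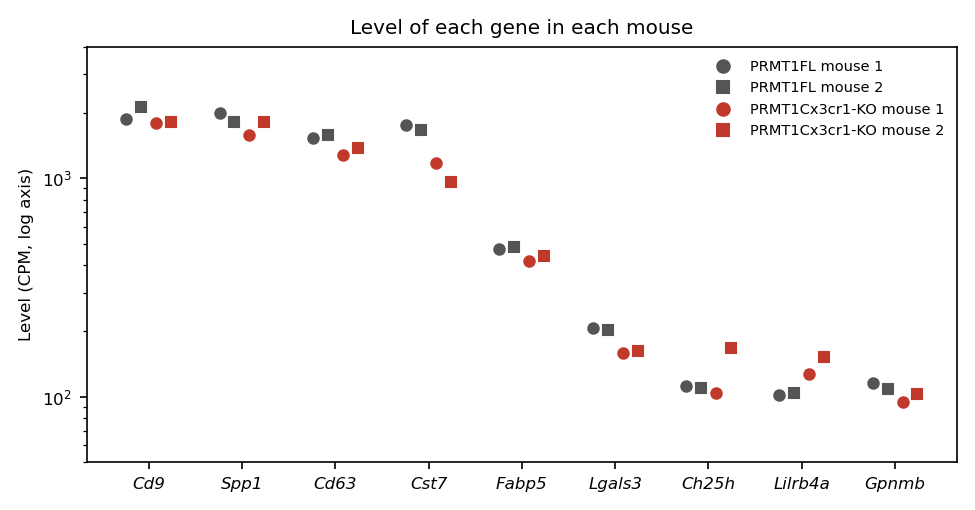
Level of each of the 9 genes in each mouse, in CPM on a log axis (grey, PRMT1FL; red, PRMT1Cx3cr1-KO; circles, mouse 1; squares, mouse 2). Cst7 lies at 1763 and 1674 CPM in PRMT1FL mice against 1176 and 965 CPM in PRMT1Cx3cr1-KO mice, while Ch25h is high in 1 PRMT1Cx3cr1-KO mouse only, at 167 CPM.

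Among the lysosomal genes, Cst7 stood at 1763 and 1674 CPM in PRMT1FL mice against 1176 and 965 CPM in PRMT1Cx3cr1-KO mice. Both PRMT1Cx3cr1-KO mice lay below both PRMT1FL mice, and Cst7 fell by 0.68 on the log2 scale (SE 0.11, adjusted p = 0.0330 by edgeR). Lgals3 stood at 206 and 202 CPM against 159 and 162 CPM. The genotypes again did not overlap, and Lgals3 fell by 0.35 on the log2 scale (SE 0.06, adjusted p = 0.0370 by edgeR). Lgals3 missed the threshold when cells were thinned to 1000 UMIs before summing (-0.28, adjusted p = 0.0952 by edgeR), where Cst7 passed (-0.52, 0.0245). With the cells of other types left out, the log2 fold changes were -0.73 for Cst7 and -0.38 for Lgals3, while the adjusted p became 0.0601 and 0.0648 by edgeR, in a fit that called 92 of 13920 genes. Without PRMT1FL mouse 1 or mouse 2 the adjusted p of Cst7 was 0.378 or 0.294 and that of Lgals3 0.397 or 0.322 by edgeR, fits in which 0 and 3 genes were called in all.

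The secreted and surface genes behaved less evenly. Spp1 was at 1996 and 1809 CPM in PRMT1FL mice against 1581 and 1804 CPM in PRMT1Cx3cr1-KO mice, so that PRMT1Cx3cr1-KO mouse 2 nearly reached PRMT1FL mouse 2. Its log2 fold change of -0.17 (SE 0.10) did not pass (adjusted p = 0.352 by edgeR). Gpnmb, at 116 and 108 against 94.2 and 103 CPM, had a log2 fold change of -0.19 (SE 0.07, adjusted p = 0.199 by edgeR). For both genes the sign turned with cells of at least 1000 UMIs thinned to 1000 before summing, so that a deep cell counts no more than a shallow one. The log2 fold change was then 0.03 (SE 0.10) for Spp1 and 0.08 (SE 0.09) for Gpnmb.

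Lilrb4a, an inhibitory receptor that carries tyrosine motifs for phosphatases, was the gene with the opposite sign in both PRMT1Cx3cr1-KO mice. It stood at 102 and 104 CPM in PRMT1FL mice against 127 and 153 CPM in PRMT1Cx3cr1-KO mice. The genotypes did not overlap and the log2 fold change was 0.44 (SE 0.10), which missed the threshold in the main edgeR fit (adjusted p = 0.0605). It passed in 7 of the 14 fits made. Among these were DESeq2 (adjusted p = 0.00136) and other settings of edgeR, such as no filter on low counts (0.00254) and a replicate block (0.0190). The near-identical neighbour Lilr4b, which may share reads with it and was named for that reason after the values were seen, held 883 to 1958 UMIs per mouse against 7754 to 15101 of Lilrb4a. Lilr4b rose by edgeR (log2 fold change 0.71, SE 0.14, adjusted p = 0.0454), so the split of UMIs between the pair is uncertain while both have the same sign.

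The tetraspanins and the lipid genes did not pass. Cd9 was at 1873 and 2117 against 1793 and 1818 CPM (log2 fold change -0.14, adjusted p = 0.369 by edgeR) and Cd63 at 1533 and 1577 against 1286 and 1385 CPM (-0.22, adjusted p = 0.157 by edgeR). Fabp5, a fatty acid binding protein, was at 477 and 486 against 419 and 441 CPM (-0.16, adjusted p = 0.215 by edgeR). For these 3 genes both PRMT1Cx3cr1-KO mice were below both PRMT1FL mice. Ch25h, the enzyme that makes the oxysterol 25-hydroxycholesterol, was at 112 and 110 CPM in PRMT1FL mice against 104 and 167 CPM in PRMT1Cx3cr1-KO mice. Only 1 PRMT1Cx3cr1-KO mouse was high, and the 2 mice of that genotype lay on either side of the PRMT1FL mice. Its log2 fold change of 0.29 (SE 0.21, adjusted p = 0.456 by edgeR) became 0.60 without PRMT1Cx3cr1-KO mouse 1 and -0.10 without mouse 2.

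Genes of the same programme and of the resting state gave the setting. Of 30 other disease-associated microglia genes, 0 rose, 2 fell and 28 did not pass by edgeR (15 had an unadjusted p under 0.05), with a median log2 fold change of -0.11. The pair that fell was Ccl6, a chemokine (-0.61, adjusted p = 0.0210 by edgeR), and Apoc1, an apolipoprotein (-0.55, adjusted p = 0.0423 by edgeR). Of 20 homeostatic genes, 1 rose and 2 fell, with a median of 0.00. Crybb1, a crystallin gene used as a marker of resting microglia, rose by 0.50 on the log2 scale (adjusted p = 0.0307 by edgeR), and Siglech, a sialic acid binding lectin, fell by 0.62 (adjusted p = 0.0186 by edgeR). Cx3cr1, the fractalkine receptor and the locus of the CreERT driver, fell by 0.85 (adjusted p = 0.00991 by edgeR), from 1447 and 1546 CPM to 848 and 815 CPM. Among 30 ligands, receptors and partners of the effector genes, such as the osteopontin receptor Cd44, the oxysterol receptor Gpr183 and the cathepsin gene Ctsl, 1 rose and 0 fell by edgeR (10 had an unadjusted p under 0.05), with a median of -0.05. That gene was Tfec, of the MiT transcription factors, at 0.281 and 0.148 CPM in PRMT1FL mice against 1.46 and 2.83 CPM in PRMT1Cx3cr1-KO mice (log2 fold change 3.29, SE 0.46, adjusted p = 0.0233 by edgeR).

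Within single cells the effector genes were carried very differently. To compare libraries at equal depth, each cell was thinned to 1000 UMIs and cells with fewer were left out (410 and 290 in PRMT1FL mice, 474 and 463 in PRMT1Cx3cr1-KO mice), which left 39232. Cd9 was found in 75.5 and 78.9% of PRMT1FL cells against 77.6 and 79.4% of PRMT1Cx3cr1-KO cells. Cd63 was found in 68.7 and 70.4% against 65.6 and 69.6%. These tetraspanins marked most cells in every mouse and their genotypes overlapped in the thinned shares. Before thinning the share of Cd63 was 91.2 to 92.8% and the genotypes overlapped, while Cd9 stood at 94.1 and 94.9% in PRMT1FL cells against 95.7 and 96.2%, which did not overlap.

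**Figure D2:**
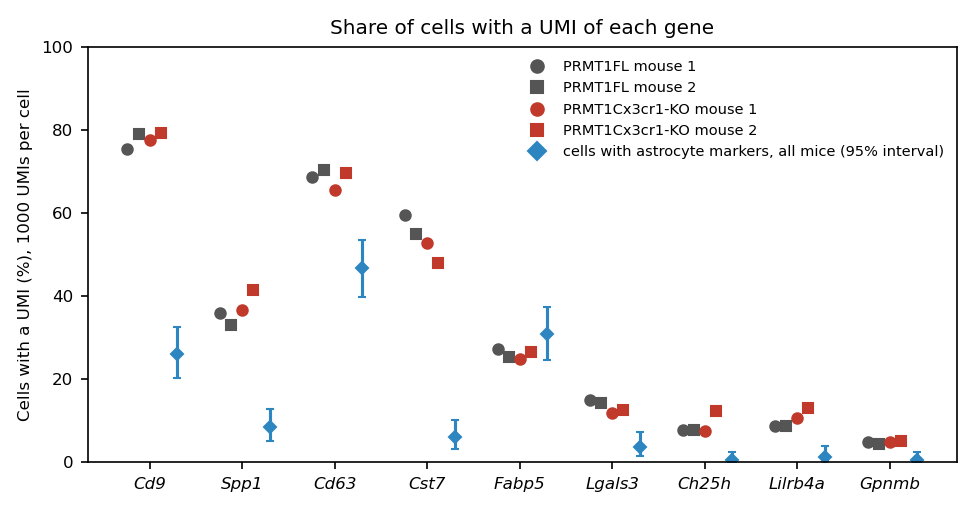
Share of cells with a UMI of each gene, in percent, after thinning each cell to 1000 UMIs, for the 4 mice (grey, PRMT1FL; red, PRMT1Cx3cr1-KO) and for cells with astrocyte markers over all mice (blue diamonds, exact 95% binomial interval). Cst7 is lower in both PRMT1Cx3cr1-KO mice, at 52.8 and 48.0%, than in the PRMT1FL mice, at 59.5 and 54.9%, and only Fabp5 reaches a higher share in the astrocyte-marker cells.

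Cst7 was found in 59.5 and 54.9% of cells in PRMT1FL mice against 52.8 and 48.0% in PRMT1Cx3cr1-KO mice. The share with at least 3 UMIs parted further, at 22.5 and 19.8% against 13.4 and 11.4%. Both measures lay below in both PRMT1Cx3cr1-KO mice, and 2 mice per genotype cannot give an exact 2-sided permutation p under 0.333. Lgals3 was found in 14.9 and 14.4% against 12.005 and 12.6% of cells. Lilrb4a was found in 8.65 and 8.72% against 10.7 and 12.99%, again without overlap. The order of the genotypes was the same before thinning: 80.3 and 77.6% against 77.0 and 74.9% for Cst7, 41.5 and 42.0% against 36.6 and 38.1% for Lgals3, and 37.8 and 39.1% against 43.4 and 50.8% for Lilrb4a.

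Spp1 was found in 36.1 and 33.2% of cells in PRMT1FL mice against 36.8 and 41.6% in PRMT1Cx3cr1-KO mice, so the genotypes stood in the opposite order to its summed level. Before thinning the shares were 60.8 and 58.2% against 62.6 and 67.5%. Thinned cells with the gene carried 4.41 and 4.49 UMIs of it in PRMT1FL mice against 3.895 and 4.29 in PRMT1Cx3cr1-KO mice. The 10% of cells richest in Spp1 held 71.9 and 73.2% of its UMIs in PRMT1FL mice against 68.6 and 65.4% in PRMT1Cx3cr1-KO mice, and before thinning a single cell carried up to 2113. In both PRMT1Cx3cr1-KO mice the share of cells with Spp1 lay above, and its UMIs per such cell below, the values of both PRMT1FL mice, by small margins. For Cst7 the richest 10% held 36.3 to 41.9% and for Cd9 28.3 to 29.4%, so that Spp1 was more concentrated in few cells than either. Cd63 (30.9 to 31.7%) and Fabp5 (58.0 to 61.7%) also lay below Spp1. Lgals3 at 76.9 to 88.2% and Lilrb4a, Gpnmb and Ch25h at 80.4 to 100% lay above Spp1. All of these were found in fewer cells than Spp1, as was Fabp5. A gene found in under 10% of cells must read 100%, so such a value follows from its detection alone.

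The scarce genes were Gpnmb, in 4.89 and 4.42% of cells of PRMT1FL mice against 4.90 and 5.25%, and Ch25h, in 7.72 and 7.69% against 7.59 and 12.3%. Ch25h again stood apart in PRMT1Cx3cr1-KO mouse 2 alone. Fabp5 was found in 27.3 and 25.3% against 24.9 and 26.7%, with overlap. Before thinning the shares were 15.7 to 18.4% for Gpnmb, 57.8 to 63.5% for Fabp5, and 31.8 and 33.0% against 31.9 and 44.2% for Ch25h.

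Free RNA can place a UMI in a cell that does not make the gene. In 214 cells with astrocyte markers (median 3244 UMIs before thinning), which should lack the myeloid genes, Cst7 was found in 6.07%, Spp1 in 8.41%, Lgals3 in 3.74%, Lilrb4a in 1.40%, and Gpnmb and Ch25h in 0.467% each. Doublets were not removed, so these shares cannot be split between free RNA and cells captured together. In the 38531 cells not given to another type (median 6886 UMIs) the shares were 54.7, 37.7, 13.5, 10.3, 4.97 and 9.04% in the same order, all above that background. Astrocytes make Cd9, Cd63 and Fabp5 themselves, and their shares there, 26.2, 46.7 and 30.8%, were no measure of free RNA. Lgals3 and Lilrb4a are also genes of other leukocytes: Lgals3 was found in 43.7% of 71 neutrophil-marker cells and 38.5% of 52 monocyte-marker cells, and Lilrb4a in 26.8 and 11.5%. Most of these cells came from PRMT1FL mice: 69 of the neutrophil-marker, 34 of the monocyte-marker and 189 of the 214 astrocyte-marker cells. Other-type cells held 1.29 and 2.43% of all Lgals3 UMIs in PRMT1FL mice against 0.290 and 0.382% in PRMT1Cx3cr1-KO mice.

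Counted together, a thinned cell carried a UMI of 3.03 and 2.98 of the 9 genes in PRMT1FL mice against 2.93 and 3.08 in PRMT1Cx3cr1-KO mice. The means differed by less than the spread between mice (exact permutation p = 1, 2-sided). Before thinning they were 5.15 and 5.10 against 5.13 and 5.46. Cells with at least 6 of the 9 genes made up 6.00 and 5.18% in PRMT1FL mice against 4.23 and 5.13% in PRMT1Cx3cr1-KO mice, and 1 cell in all carried all 9. Cells with none made up 5.26 and 4.99% against 4.12 and 2.84%. With the cells of other types left out, the share with none was 4.56 and 4.32% against 3.89 and 2.65%. The genotypes did not overlap in these shares, but those with at least 5 genes overlapped (18.4 and 16.9% against 14.9 and 17.5%), and so did those with at least 6 when cells were thinned to 2000 UMIs (18.9 and 16.9% against 16.0 and 19.4%). The variance of the number per cell, relative to that of independent genes with the same shares, was 1.82 and 1.79 in PRMT1FL mice against 1.59 and 1.52 (exact permutation p = 0.333, the smallest this design allows).

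Co-detection was measured for each of the 36 pairs as the log2 of the share of cells with both genes over the product of the 2 shares. The value was above 0 in all 4 mice for 31 pairs and below 0 in all 4 for 0 pairs. Gpnmb and Lgals3, the surface glycoprotein and the galectin, had the largest mean over the 4 mice (1.02, range 0.74 to 1.37), at 0.79 in PRMT1FL and 1.26 in PRMT1Cx3cr1-KO mice. In PRMT1FL mice alone, Gpnmb with Fabp5 (1.003), Lilrb4a with Lgals3 (0.98) and Gpnmb with Ch25h (0.82) were higher. In PRMT1Cx3cr1-KO mouse 2, 32.7% of cells with Gpnmb had Lgals3 against 11.5% of those without, and in PRMT1FL mouse 1 the shares were 25.0 and 14.4%. By that mean over 4 mice, Gpnmb with Fabp5 followed (0.94, range 0.80 to 1.09), then Lilrb4a with Lgals3 (0.82, range 0.58 to 0.98) and Spp1 with Gpnmb (0.77, range 0.72 to 0.84). Cells carrying one of these phagocytic or lipid genes therefore carried another more often than their shares alone would give. No pairs of other genes were measured, so this trait is not shown to be particular to these genes. Pairs with Cd9 had a median of 0.08, where a gene found in most cells has little room to rise. This ratio has the most room where both genes are scarce, so the order of pairs depends on the measure. By the correlation of presence across cells (phi, mean over 4 mice), Spp1 with Fabp5 was highest (0.19). Gpnmb with Lgals3 was at 0.09 by phi.

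**Figure D3:**
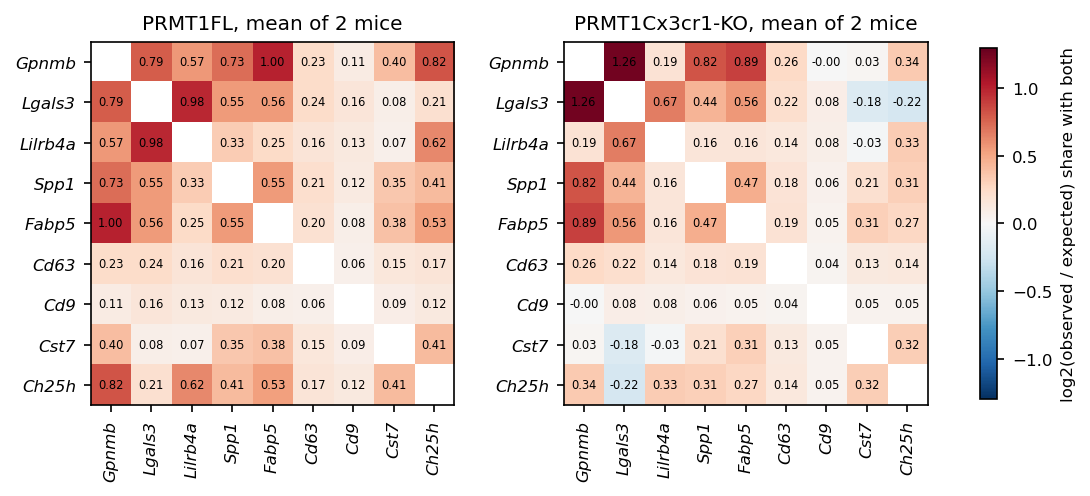
Co-detection of each pair, as log2 of the observed over the expected share of thinned cells with both genes, mean of the 2 PRMT1FL mice (left) and of the 2 PRMT1Cx3cr1-KO mice (right). Gpnmb with Lgals3 reads 0.79 and 1.26, whereas Cst7 with Lgals3 reads 0.08 and -0.18.

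Cst7 joined some of the genes and not others. It was found with Ch25h (mean 0.37), Fabp5 (0.35), Spp1 (0.28), Cd63 (0.14) and Cd9 (0.07) above expectation in every mouse. With Lilrb4a the mean was 0.02 and with Lgals3 -0.05. Cst7 with Lgals3 was at 0.11 and 0.04 in PRMT1FL mice and at -0.05 and -0.31 in PRMT1Cx3cr1-KO mice. Gpnmb with Cst7 was at 0.39 and 0.42 in PRMT1FL mice against 0.17 and -0.12 in PRMT1Cx3cr1-KO mice. The genotypes did not overlap in these pairs, as in 26 of the 36 pairs. Of those 26 pairs, 24 were lower in PRMT1Cx3cr1-KO mice and 2 higher (Gpnmb with Lgals3 and Spp1 with Gpnmb). No such share was measured over pairs of other genes. Because the 36 pairs share genes, these counts are not independent of each other. Over all pairs the median was 0.27 and 0.26 in PRMT1FL mice against 0.21 and 0.16 in PRMT1Cx3cr1-KO mice (difference -0.08, exact permutation p = 0.333). With no thinning the difference was -0.02 and the genotypes overlapped.

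To see which further genes went along, all genes found in at least 5% of thinned cells were ranked by the Pearson correlation, across cells, with the number of the 9 genes in the cell. These correlations describe cells that share a library and a depth, and carry no test. Of 2418 genes, those most alike were Ctsd (mean r over 4 mice 0.44), Ctsb (0.41), Apoe (0.38), Tyrobp (0.36), Ctsz (0.33), Gapdh (0.32), Cd52 (0.29), Rpl41 (0.28), Fcer1g (0.27) and Lpl (0.26). Among them are 3 cathepsins, the lipid genes Apoe and Lpl, and the adaptors Tyrobp and Fcer1g that signal for myeloid receptors. Gapdh, Cd52 and Rpl41 belong to none of these groups. All of these most alike genes but Lpl (42.3%) were found in at least 75.3% of thinned cells, and the part of abundance in the ranking was not tested. Cells given to another type were kept in this ranking. For Ctsd r was 0.50 in both PRMT1FL mice and 0.38 and 0.39 in the PRMT1Cx3cr1-KO mice. At the other end stood the nuclear RNA Malat1 (-0.33), the resting-state receptor P2ry12 (-0.32), Jun (-0.31), Cst3 (-0.29) and Jund (-0.28).

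Cells were then divided into 3 strata by their thinned UMIs of 9 homeostatic genes, none of them an effector gene: fewer than 6 UMIs, 6 to fewer than 10, and 10 or more. Between genotypes, 7 of these homeostatic genes had estimates above 0 and 2 below (median log2 fold change 0.11), none past the threshold by edgeR. The genes that set the strata thus leaned higher in PRMT1Cx3cr1-KO mice. The lowest stratum held 37.2 and 34.4% of cells in PRMT1FL mice against 30.3 and 26.1% in PRMT1Cx3cr1-KO mice. In that stratum 7.21 and 8.26% of PRMT1FL cells against 2.87 and 2.39% of PRMT1Cx3cr1-KO cells had been given to another type. In the highest stratum at most 0.109% had. This gap between strata follows in part from the rule. The 9 homeostatic genes are all among the microglial markers, which a cell of another type must carry less of than its own. Over both genotypes, limma's voom called 41.6% of 13820 genes between the highest and the lowest stratum (18.2% higher, 23.4% lower), and 7 of the 9 effector genes were among them, 6 lower and 1 higher in cells rich in homeostatic UMIs. Lgals3 fell most, by 2.27 on the log2 scale (SE 0.03, adjusted p = 1.19e-12 by limma), from 386 to 71.3 CPM in PRMT1FL mouse 2 and from 325 to 72.6 CPM in PRMT1Cx3cr1-KO mouse 2. Gpnmb, at 149 to 206 CPM in the lowest and 45.9 to 58.6 CPM in the highest stratum, did not overlap between these strata, and neither did Spp1, at 2293 to 2662 and 1026 to 1435 CPM. Gpnmb fell by 1.74, Lilrb4a by 1.03, Spp1 by 0.99, Fabp5 by 0.71 and Cd63 by 0.31, with the largest adjusted p among them 8.63e-06 by limma. Cst7 rose in those cells (0.35, SE 0.06, adjusted p = 0.000458 by limma), and Cd9 (0.00) and Ch25h (-0.07) did not pass. The mean number of the 9 genes per cell was 3.21 to 3.30 in the lowest and 2.46 to 2.83 in the highest stratum.

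**Figure D4:**
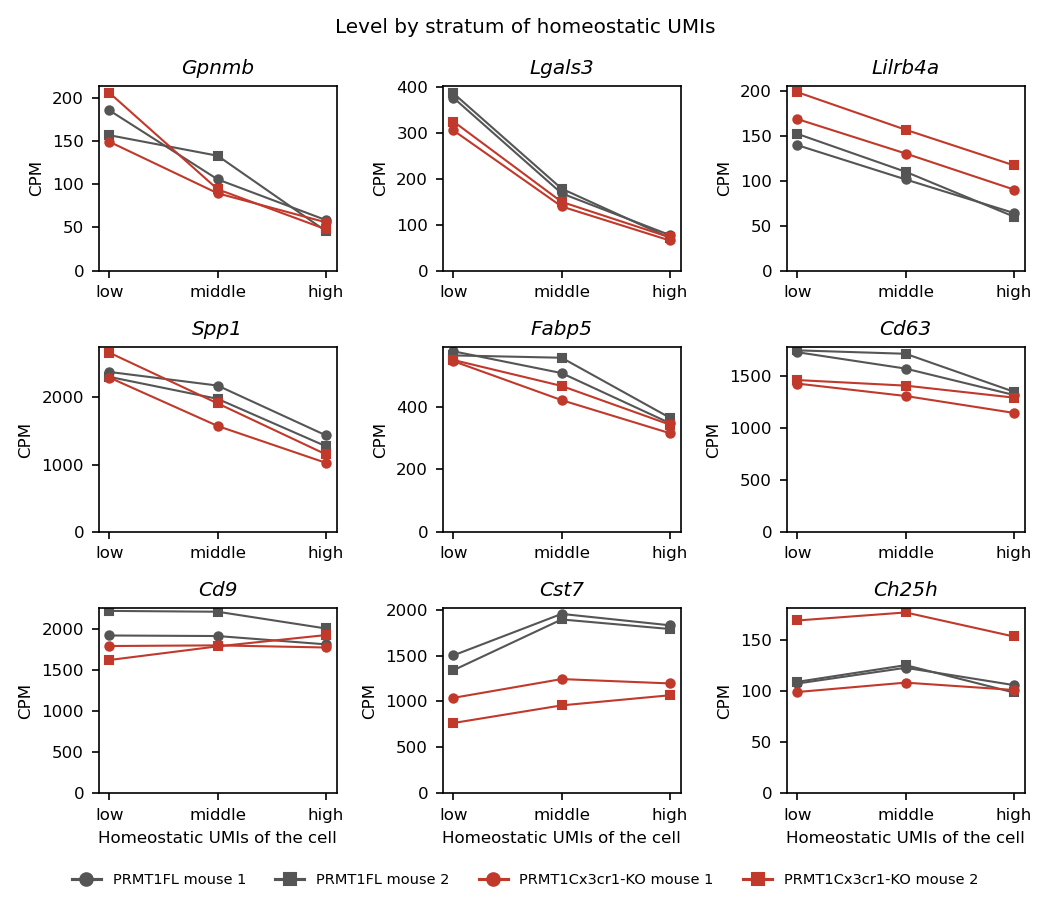
Level of each gene in CPM by stratum of homeostatic UMIs (low, middle, high), 1 line per mouse (grey, PRMT1FL; red, PRMT1Cx3cr1-KO), axes from 0. Lgals3 and Gpnmb decline from low to high in every mouse, whereas Cst7 is higher in the high than in the low stratum in every mouse. The PRMT1Cx3cr1-KO lines of Cst7 lie below the PRMT1FL lines in all 3 strata.

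The genotypes were compared inside the strata by the same fit. All strata share 1 estimate of the spread in it, still from 4 mice. Its p-values and shares called are therefore not comparable with those of the sums per mouse. In the lowest stratum, where 12.4% of genes were called (4.18% higher, 8.19% lower), Cst7 fell by 0.67 on the log2 scale (adjusted p = 0.00362 by limma), Cd9 by 0.28 (0.0452), Cd63 by 0.27 (0.0151) and Lgals3 by 0.27 (0.0146). With the cells of other types left out these values were -0.75, -0.35, -0.34 and -0.33, and all 4 still passed. In the highest stratum, where 4.35% were called (2.08% higher, 2.27% lower), Cst7 fell by 0.68 (adjusted p = 0.00725 by limma) and Lilrb4a rose by 0.73 (0.005004). There Cst7 was at 1832 and 1791 CPM in PRMT1FL mice against 1197 and 1068 CPM, and Lilrb4a at 64.3 and 60.3 against 90.4 and 117 CPM. Neither gene's genotypes overlapped in that stratum. None of these 6 calls passed by limma without PRMT1FL mouse 1 (adjusted p = 0.0925 to 0.214) or without PRMT1FL mouse 2 (0.0534 to 0.422), and that of Cd9 did not pass without PRMT1Cx3cr1-KO mouse 2 either (0.214), nor with strata by P2ry12 and Tmem119 alone (0.0916), with 2 strata (0.0760) or without the deepest 5% of cells (0.0501).

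Whether a genotype difference itself changed with the stratum was tested as an interaction, which called 53 genes (0.384%, of which 0.326% higher and 0.0579% lower) and none of the 9 by limma's voom, with an unadjusted p under 0.05 for 4 of the 9, against 12.9% of all genes. Spp1 came nearest, at -0.39 (SE 0.08, adjusted p = 0.0758 by limma): its log2 fold change was 0.08 in the lowest stratum and -0.31 in the highest. Without the deepest 5% of cells the interaction of Spp1 was -0.47 and passed (adjusted p = 0.0495 by limma). This sign depended on the genes that set the strata. With P2ry12 and Tmem119 alone, the Spp1 interaction was 0.69 (adjusted p = 0.0147 by limma) and that of Lgals3 0.87 (0.00362). Between genotypes, P2ry12 and Tmem119 themselves had log2 fold changes of 0.35 and 0.22 (adjusted p = 0.0797 and 0.215 by edgeR). For Cst7 the interaction was -0.01 (SE 0.12), and 0.03 with P2ry12 and Tmem119 alone.

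Finally, cells in which an anchor gene or list had a UMI were compared with cells in which it had none, after thinning and without the cells of other types. The value is the log2 ratio of the gene's CPM, given as the mean over 4 mice, with no test. Cells with Ms4a7, a membrane protein of a macrophage-like state, made up 1.63 and 1.505% in PRMT1FL mice against 2.34 and 5.86% in PRMT1Cx3cr1-KO mice. Gpnmb was higher in them (2.56, range 1.76 to 2.84), as were Lgals3 (0.94) and Spp1 (0.86), while Cst7 was lower in every mouse (-0.56). Cells with Gdf15, a secreted stress cytokine, made up 0.803 and 0.968% against 2.51 and 2.92%. They carried more Gpnmb (1.73), Lgals3 (1.20) and Lilrb4a (1.02) in every mouse, and less Cst7 (-0.82) and Spp1 (-0.48). In PRMT1Cx3cr1-KO mouse 2, Cst7 was found in 24.8% of cells with and 49.0% of cells without Gdf15. These cells were few, 74 to 303 per mouse, and Gpnmb rested on 24 to 80 UMIs in them.

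**Figure D5:**
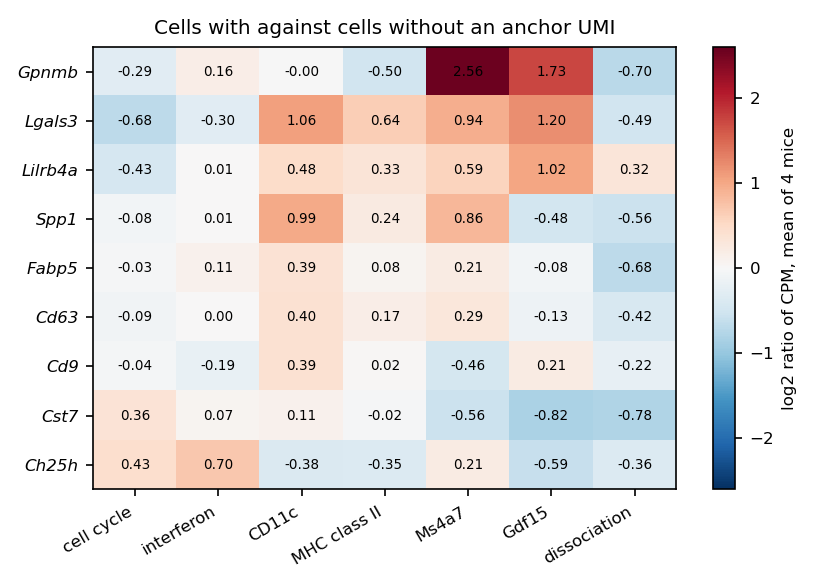
Log2 ratio of the CPM of each gene in cells with against cells without a UMI of each anchor, mean of 4 mice. Gpnmb reads 2.56 for Ms4a7 and 1.73 for Gdf15, and Cst7 reads -0.56 and -0.82 in the same columns.

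Cells with Itgax, which encodes CD11c, made up 11.3 and 11.2% in PRMT1FL mice against 6.12 and 3.07% in PRMT1Cx3cr1-KO mice. They carried more Lgals3 (1.06, range 0.91 to 1.28) and Spp1 (0.99, range 0.82 to 1.14), and to a smaller degree more Lilrb4a, Cd63, Cd9 and Fabp5 (0.39 to 0.48), in every mouse. For Gpnmb the mean was -0.00 and the mice differed in sign. Cells with UMIs of the MHC class II genes H2-Aa, H2-Ab1 and H2-Eb1, at 13.2 and 15.7% against 7.87 and 4.86%, carried more Lgals3 (0.64) and less Gpnmb (-0.50). Ch25h was the gene that went with the interferon-induced genes Ifit1, Ifit2, Ifit3 and Rsad2 (0.70, range 0.55 to 0.82), the other means lying between -0.30 and 0.16. In cells with the cell cycle genes Mki67, Top2a, Birc5, Cdk1, Ccnb2 and Ube2c, Ch25h (0.43) and Cst7 (0.36) were higher and Lgals3 (-0.68) and Lilrb4a (-0.43) lower in every mouse. These cells made up 7.16 and 6.87% in PRMT1FL mice against 10.3 and 13.7% in PRMT1Cx3cr1-KO mice. Cells with Fos, Jun, Egr1, Hspa1a, Hspa1b or Dusp1, genes that enzymatic dissociation can induce, made up 62.1 to 70.7% of each library. All of the genes except Lilrb4a (0.32) were lower in them in every mouse, from -0.22 for Cd9 to -0.78 for Cst7. Of these anchor genes H2-Aa, H2-Ab1 and H2-Eb1 fell and Gdf15, Birc5 and Dusp1 rose between genotypes by edgeR (largest adjusted p = 0.0490), so the shares of anchor cells moved with genotype and their part in the summed levels was not tested.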

How the data were processed

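Per the labels, Cell Ranger 3.1.0 and the mouse build mm10 were used. The authors deposited UMI counts per gene and cell barcode, neither normalized nor reduced to a common number of cells. The labels name the 3′ v2 kit. Seurat 3.2.0 and Scanpy 1.5.2 also appear in the submitters' processing notes. The members and lists were chosen with earlier results of these data known.

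The methods' limits of 200 to 6000 genes and 10% mitochondrial UMIs per cell were applied. Doublets were not removed. UMIs were summed per mouse, scaled by TMM and tested across all genes passing filterByExpr with edgeR 4.0.16 (quasi-likelihood, Benjamini-Hochberg, threshold 0.05, 2 mice against 2). CPM values of genes per mouse or stratum are TMM-scaled. Those of the cell type markers are scaled to the library sum alone, and the anchor ratios used thinned counts without TMM. Sums per mouse and stratum were tested with limma 3.58.1 (voom, mouse as random block, within-mouse correlation 0.459), and the contrast of strata over both genotypes was added after the data were seen. DESeq2 1.42.0 was an alternative. Both models were tested on simulated data. Detection, co-detection and anchor values used cells thinned at random to 1000 UMIs. Binomial intervals are exact (95%) and cover counting error only. Differences over mice used exact permutation tests, whose smallest 2-sided p is 0.333.

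The text names all members. Of the other lists it names genes past the threshold, at most 4 per list and direction, and otherwise at least the 2 most abundant. These were Sparc and Fcrls for the homeostatic strata (log2 fold change -0.16 and 0.03, adjusted p = 0.280 and 0.856 by edgeR) and Ifit3 and Ifit2 for interferon (-0.33 and -0.16, 0.517 and 0.771). Itgax (-1.50, 0.0678) and Ms4a7 (1.26, 0.113) did not pass by edgeR either. Likeness names the 10 highest and 5 lowest correlations. Alternatives were another scaling, no filter, DESeq2, voom, a replicate block, other cell types left out, a mitochondrial limit of 5%, the deepest 5% of cells left out, other thinning and strata, and each mouse left out.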

Additional observations from a re-analysis of the deposited data

Results flagged for a closer look

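In 5 comparisons every PRMT1FL mouse lay on one side of 0 and every PRMT1Cx3cr1-KO mouse on the other. The difference between genotypes was not tested in any of them, and 63 anchor and 36 pair comparisons were looked at. Co-detection of Cst7 with Lgals3 averaged 0.077 in PRMT1FL mice against -0.18 in PRMT1Cx3cr1-KO mice on the log2 scale. Co-detection of Lgals3 with Ch25h averaged 0.21 (0.29 and 0.14) in PRMT1FL mice against -0.22 (-0.14 and -0.30) in PRMT1Cx3cr1-KO mice. Cst7 in cells with against cells without MHC class II UMIs averaged -0.24 in PRMT1FL mice against 0.19 in PRMT1Cx3cr1-KO mice. Gpnmb in cells with against cells without Itgax (CD11c) UMIs averaged -0.52 in PRMT1FL mice against 0.52 in PRMT1Cx3cr1-KO mice, on 44 to 88 UMIs of Gpnmb per mouse. Ch25h in cells with against cells without Gdf15 averaged 0.11 in PRMT1FL mice against -1.29 in PRMT1Cx3cr1-KO mice, on 7 to 14 UMIs of Ch25h per mouse.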

How the results depend on the processing

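Of 749 genes called between genotypes (194 rising, 555 falling), the number became 2117 with no filter on low counts and 1230 with DESeq2. It became 92 with cells of other types left out (65 rising, 27 falling). Without 1 mouse it ranged from 0 to 3801; the 0, without PRMT1FL mouse 1, came with 1664 genes at an unadjusted p under 0.05 by edgeR. Of the 9 effector genes, 2 were called, 0 with cells of other types left out, and 0 to 5 without 1 mouse. The numbers of the mice are not stated to pair them. With the replicate block 1373 genes were called and, in addition to Cst7 and Lgals3, Lilrb4a (adjusted p = 0.0190 by edgeR). The deviations of same-numbered mice from the mean of their genotype correlated at 0.12. With 2 mice per genotype both pairs must give this same value, so it cannot show whether the numbers pair the mice.

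Signs turned for Spp1 (0.031) and Gpnmb (0.076) with cells thinned before summing, for Ch25h without PRMT1Cx3cr1-KO mouse 2 (-0.098, within a range to 0.60 when 1 mouse was left out). Of 216 estimates of the 9 genes within or between strata under the alternatives, 36 had another sign than reported, and 3 of these passed the threshold by limma, all with strata by P2ry12 and Tmem119 alone: the Spp1 interaction (0.69), Spp1 (0.52) and Lgals3 (0.50) in the highest stratum. Under that setting signs also turned for Cd9 in the highest stratum (0.092), Spp1 in the lowest (-0.17) and the Cst7 interaction (0.030). The last was 0.074 with cells of other types left out and 0.0056 with 2 strata, and Spp1 in the lowest stratum -0.0047 and -0.079. Without 1 mouse the Cst7 interaction ranged from -0.16 to 0.14, Spp1 in the lowest stratum from -0.018 to 0.19 and Cd9 in the highest from -0.12 to 0.028. Between genotypes, Cst7 ranged from -0.83 to -0.52 and was called in 11 of 14 fits, Lgals3 from -0.38 to -0.28 and in 10. The interaction called 10 genes with other cell types left out, 100 with strata by P2ry12 and Tmem119, 14 with 2 strata, and 1 to 67 without 1 mouse. The difference in members per cell, -0.00, was 0.094 at 2000 UMIs and 0.174 with no thinning, and ranged from -0.08 to 0.08 without 1 mouse. That in co-detection, -0.08, was -0.117 and -0.019 under the same settings, and ranged from -0.10 to -0.05. The cause of these shifts was not tested. With 2 mice per genotype, leaving out 1 leaves a lone sample assumed to vary like the other group.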
